A study of Mus musculus with 18 samples.

Results

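Interferon-stimulated genes are the antiviral program that cells switch on when they sense interferon or foreign nucleic acid. A set of 34 such genes was followed through 18 RNA-seq libraries of mouse tail tendon fibroblasts (TFs). They were chosen by name from a table of 55491 rows, all 34 were found, and all 34 were among the 16174 genes that passed the filter on low counts. This set and the other gene lists were chosen with earlier results of these data known, which limits every share set beside all genes. Ctrl TFs came from Cre-negative mice. cKO TFs came from mice in which Cre, expressed under the control of Scx, a tendon transcription factor, acts on floxed Hif1a alleles, and the labels call these cells Hif1a knockout. Gesicles are vesicles that carry Cre protein, and they were given to Ctrl TFs in culture. Each of these 3 kinds of cell was cultured for 4 days in 20% or 1% O2, with 3 replicates in each of the 6 groups (Ctrl 20% O2, Ctrl 1% O2, Ctrl+gesicles 20% O2, Ctrl+gesicles 1% O2, cKO 20% O2 and cKO 1% O2). The mice were 4 to 6 months old, of both sexes and of a mixed strain background, per the methods of the study. The methods list Cre-negative Ctrl mice as homozygous for floxed Hif1a, and they do not mention gesicles. The labels call the gesicle-treated TFs wild-type. Labels and methods thus conflict, and which of them holds for the gesicle-treated TFs is unsettled. Whether Cre from gesicles deleted Hif1a in the gesicle-treated TFs cannot be checked here. The gesicle comparison can thus be read neither as one of Hif1a loss nor as one without it. No group received gesicles without Cre, so the effect of the vesicle cannot be told apart from that of the Cre it carries.

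Double-stranded RNA in the cytoplasm is sensed by the helicases RIG-I and MDA5, and DNA by cGAS, and both routes lead through IRF3 to interferon beta. Secreted interferon binds the receptor pair IFNAR1 and IFNAR2, and a complex that holds STAT2 and IRF9 then enters the nucleus. It binds a short DNA element, the interferon-stimulated response element (ISRE), near the start of its target genes. Many of the targets are themselves sensors or signalling proteins, so the program amplifies itself. Fibroblasts carry both the sensors and the receptor.

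Promoter windows of 300 bases, from 250 bases before to 50 after the start of the gene (RefSeq, GRCm38.p6), were on hand for 25 of the 34 genes. They were searched on both strands for the core of the ISRE, written as GAAA followed by any 2 bases and a second GAAA. It was found in 13 of the 29 windows of these genes (44.8%) and in 3.44% of all 32851 windows. A second element, GAS (TTCNNNGAA, both strands), known from interferon gamma responses, was found in 7 of the 29 windows (24.1%) and in 8.30% of all windows. The ISRE core was present at Stat2, Ifih1, Eif2ak2, Oas1a, Ifit1, Ifit3, Isg15, Rsad2, Bst2, Gbp2, Gbp3, Gbp7 and Cxcl10. No window was on hand for Zbp1, Mx1, Usp18, Ifi27, Rtp4, Parp14, Dhx58, Parp9 and Mx2. These matches are letters in a window and were not tested for binding.

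The 250 bases before the RefSeq start are printed for 4 genes that hold the core and for Lgals3bp. Lgals3bp does not hold these letters in its window and had the lowest p-value of the set in gesicle-treated TFs. In another annotation, GENCODE M21, the gene starts inside the printed stretch for Lgals3bp (at 118402092), Gbp2 (142620602) and Gbp3 (142560026). These 3 stretches thus hold bases of the gene by that annotation. A second window of Gbp3 held no core and is not printed. All printed stretches are written 5′ to 3′ on the strand of the gene, with the ISRE core in capitals, where overlapping matches run together. Gbp2 lies at chr3:142620413-142620662 (+ strand), Gbp3 at chr3:142559794-142560043 (+ strand), Bst2 at chr8:71537473-71537722 (- strand), Ifit3 at chr19:34583279-34583528 (+ strand) and Lgals3bp at chr11:118401960-118402209 (- strand).
Gbp2: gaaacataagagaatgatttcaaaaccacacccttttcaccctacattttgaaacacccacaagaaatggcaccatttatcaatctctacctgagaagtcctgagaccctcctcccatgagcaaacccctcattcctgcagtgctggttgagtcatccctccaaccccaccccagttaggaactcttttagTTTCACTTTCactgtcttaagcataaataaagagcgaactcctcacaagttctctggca
Gbp3: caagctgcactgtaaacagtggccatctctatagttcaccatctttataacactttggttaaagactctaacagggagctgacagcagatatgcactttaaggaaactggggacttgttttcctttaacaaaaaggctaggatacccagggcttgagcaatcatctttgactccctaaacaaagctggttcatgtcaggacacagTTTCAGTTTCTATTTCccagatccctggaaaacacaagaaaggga
Bst2: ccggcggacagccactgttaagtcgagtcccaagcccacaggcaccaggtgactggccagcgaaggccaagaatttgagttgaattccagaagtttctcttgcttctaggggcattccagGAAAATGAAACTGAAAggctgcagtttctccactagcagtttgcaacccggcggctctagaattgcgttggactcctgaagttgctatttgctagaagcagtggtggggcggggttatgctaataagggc
Ifit3: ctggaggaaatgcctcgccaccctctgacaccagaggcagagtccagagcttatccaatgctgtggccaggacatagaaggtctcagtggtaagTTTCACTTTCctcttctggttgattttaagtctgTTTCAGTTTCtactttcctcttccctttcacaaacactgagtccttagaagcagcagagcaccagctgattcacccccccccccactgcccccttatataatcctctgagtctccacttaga
Lgals3bp: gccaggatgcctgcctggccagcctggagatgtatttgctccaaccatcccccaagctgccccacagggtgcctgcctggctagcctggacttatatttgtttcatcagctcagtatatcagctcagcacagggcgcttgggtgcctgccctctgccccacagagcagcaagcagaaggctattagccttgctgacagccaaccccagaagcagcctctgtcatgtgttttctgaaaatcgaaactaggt

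Library totals ranged from 6857558 to 51806453 counts, and 3 counts, taken as the floor, stood for 0.0579 to 0.437 CPM (counts scaled to a common library size with TMM factors). The lowest total was that of cKO 1% O2 replicate 1. Markers of tendon fibroblasts summed to between 7087 and 18367 CPM. The list of 7 lymphocyte and dendritic cell markers summed to at most 0.178 CPM, and Cd3e, Siglech and Flt3, which mark T cells and dendritic cells, had no count in any library. Hif1a lay between 294 and 504 CPM in all 18 libraries and between 341 and 397 CPM in the 6 gesicle-treated libraries. A count over the whole gene includes the exons outside the floxed part, so it is no check of the deletion.

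Most of the 34 genes went up and down together, Ifi27 being the exception, and libraries of 1 group could stand far apart. Over all 561 pairs of the 34 genes, the median Spearman correlation across the 18 libraries was 0.87, and 93.8% of pairs were above 0.5. The median SD within groups was 1.20 on the log2 scale for the 34 genes and 0.252 for all genes tested, and 29 of the 34 genes lay above the 95th percentile of all genes in this spread. The summed level of the set was 5301, 8757 and 6790 CPM in the Ctrl+gesicles 20% O2 libraries (replicates 1, 2 and 3). It was 1637, 2555 and 729 CPM in Ctrl 20% O2. It was 4890, 814 and 3367 CPM in Ctrl+gesicles 1% O2. Replicate 2 of this last group was thus low, and it was below both other libraries of its group in 34 of 34 genes. In Ctrl 1% O2 the sums were 701, 1591 and 749 CPM. In cKO 20% O2 they were 820, 778 and 655 CPM, the narrowest range of any group. In cKO 1% O2 they were 1100, 2514 and 809 CPM. Replicate 2 was above both other libraries of its group in 33 of 34 genes in Ctrl 1% O2 and in 31 of 34 in cKO 1% O2, and Ctrl 20% O2 replicate 3 was below both others in 34 of 34. At 1% O2, the gesicle-treated replicate 2 (814 CPM) thus lay below the untreated replicate 2 (1591 CPM), against the order of the other 2 numbers. Groups were kept as labelled, and whether the labels of these 2 libraries hold was not tested, which bears on every gesicle value in 1% O2 and on the O2 comparisons of Ctrl and gesicle-treated TFs. For the main comparisons, values without these libraries are given beside the results.

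**Figure D1:**
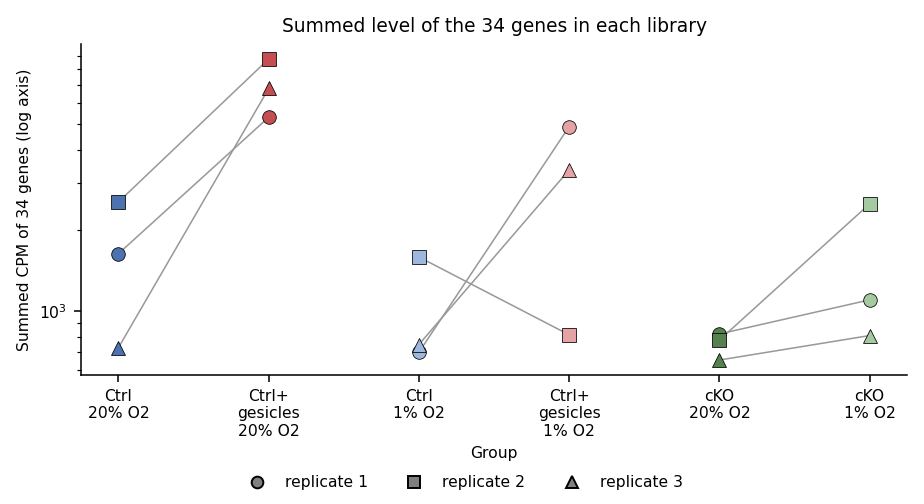
Summed CPM of the 34 interferon-stimulated genes in each library (log axis) by group. Each point is 1 library, its shape gives the replicate number, and grey lines join libraries with the same number in neighbouring groups. The 3 gesicle-treated libraries in 20% O2 lie between 5301 and 8757 CPM, while in 1% O2 replicate 2 of the gesicle-treated group lies at 814 CPM, under replicate 2 of Ctrl 1% O2 at 1591 CPM.

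**Figure D2:**
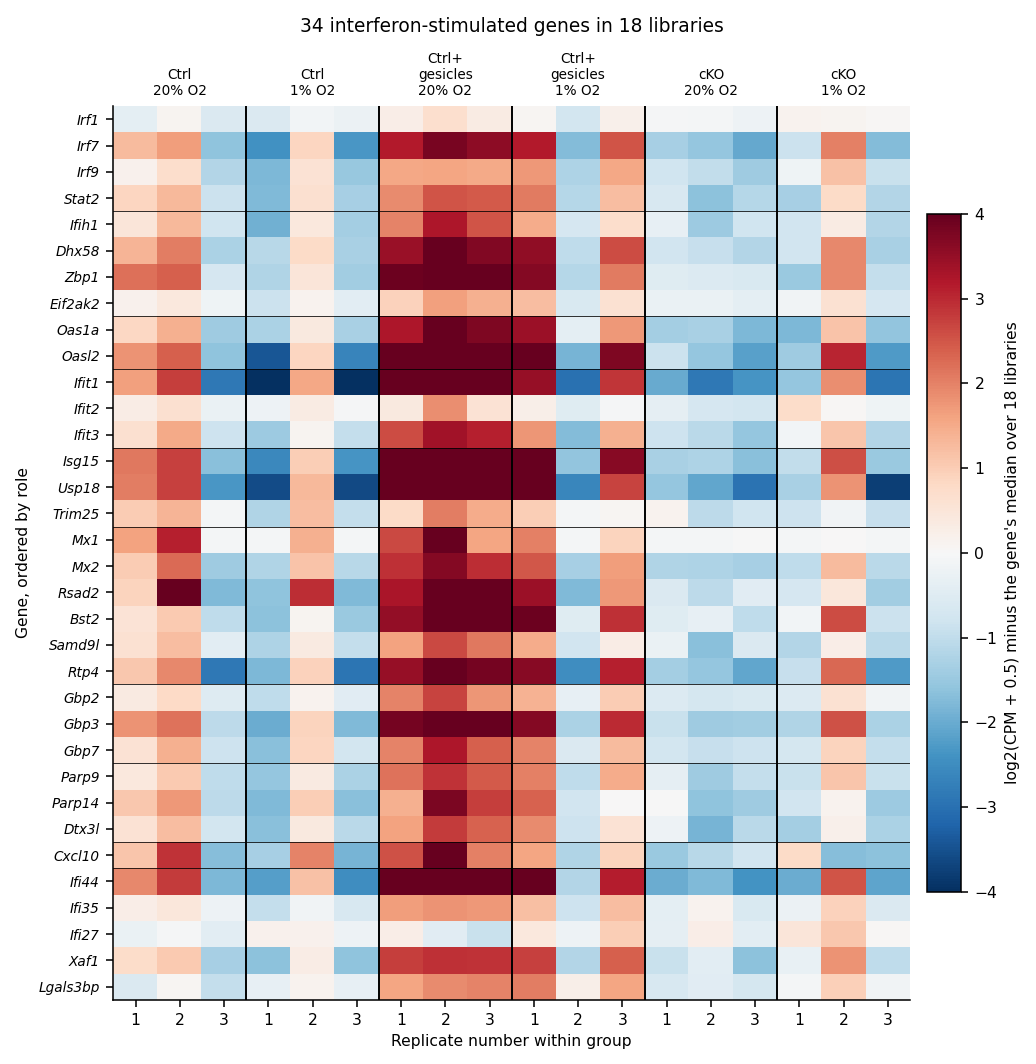
Level of each of the 34 genes (rows, ordered by role) in each of the 18 libraries (columns, by group and replicate number), as log2(CPM + 0.5) minus the median of the gene over the 18 libraries. Colours stop at 4 above and 4 below the median. Most rows share 1 pattern, and Ifi27 does not follow it. Red, above the median, marks the 3 Ctrl+gesicles 20% O2 libraries and replicates 1 and 3 of Ctrl+gesicles 1% O2. Their median ratio to the gene's median was 2.98 to 11.1. Red of less depth on the whole also marks Ctrl 20% O2 replicates 1 and 2 (ratios 1.72 and 2.66). The same holds for replicate 2 of Ctrl 1% O2 (1.48) and of cKO 1% O2 (2.11).

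To ask what gesicle treatment did to the set, Ctrl+gesicles TFs were compared with Ctrl TFs at the same O2 level. In 20% O2, 33 of the 34 genes had their highest group mean in gesicle-treated TFs, counted over all 6 groups. The share of all genes with their highest mean there was not computed. Of the 34, 27 had all 3 gesicle-treated libraries above all 3 Ctrl libraries (6.88% of all genes tested did). The median log2 fold change of the set was 2.21, against 0.01 for all genes tested. No gene of the set passed the test, which asked for an adjusted p under 0.05 by edgeR's quasi-likelihood method with Benjamini-Hochberg adjustment and a fold change of at least 1.5, and 4 of all genes tested did (0.0247%). At an unadjusted p under 0.05, 22 of the 34 were higher (2.36% of all genes). DESeq2 called 2 of the 34, Gbp2 and Lgals3bp (0.285% of all genes it tested), and limma voom with library weights called 0. Ctrl 20% O2 libraries also serve as the reference for the O2 and cKO comparisons given further on, so these comparisons share samples.

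Lgals3bp (chromosome 11, 118392751 to 118402092, GENCODE M21 on GRCm38) encodes a secreted glycoprotein that binds galectins. Its level was 714, 877 and 940.0 CPM in Ctrl+gesicles 20% O2 and 160.1, 251 and 123 CPM in Ctrl 20% O2. The groups were apart by more than the spread within either, with a log2 fold change of 2.25 ± 0.39 (SE, as for each ± here; adjusted p = 0.0853 by edgeR and 5.51e-06 by DESeq2). Without a filter on low counts edgeR's adjusted p was 0.00264. Gbp2, a guanylate-binding protein that coats pathogen-containing vacuoles, stood at 88.8, 146 and 77.2 CPM with gesicles and at 28.5, 38.7 and 15.4 CPM without. Its groups did not overlap, and its log2 fold change was 1.92 ± 0.44 (adjusted p = 0.301 by edgeR and 0.00439 by DESeq2). Gbp3, of the same family, read 112, 161 and 161 CPM against 26.9, 34.99 and 3.32 CPM. All 3 guanylate-binding genes of the set, Gbp7 included, had groups that did not overlap and an unadjusted p under 0.05.

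Bst2 encodes tetherin, which holds budding virus particles on the cell surface. Its level was 148, 212 and 265 CPM with gesicles and 18.6, 26.7 and 5.93 CPM without, so that the lowest treated library was above the highest Ctrl library. At 3.61 ± 1.00 (edgeR adjusted p = 0.554) it had the largest log2 fold change of the 34. Samd9l, a translation-blocking restriction factor, was at 223, 454 and 317 CPM with gesicles and at 112, 171 and 53.9 CPM without. Of the 6 restriction factors and enzymes, 2 were at an unadjusted p under 0.05 (Bst2 and Samd9l), and Rtp4 and Mx2 also had groups that did not overlap. Mx1 and Rsad2 (viperin) had groups that overlapped, and both had a library at 0 counts in Ctrl 20% O2.

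Among the IFIT proteins, which bind viral RNA that lacks the cap marks of the cell, Ifit3 was the most abundant. It read 1039, 1753 and 1452 CPM in Ctrl+gesicles 20% O2 and 265, 480.1 and 95.6 CPM in Ctrl 20% O2. The lowest treated library was above the highest Ctrl library, a log2 fold change of 2.34 ± 0.75 (edgeR adjusted p = 0.862). Its reads are uncertain, because 41.1% of its stretches of 75 bases also occur in Ifit3b. The reads of the study were paired and longer than this, and the share at their length was not computed. Ifit1 was at 644, 1161 and 719 CPM against 126, 273 and 5.05 CPM. Ifit2 was at 119.9, 330.3 and 136 CPM against 112, 144 and 76.2 CPM. Unlike Ifit1 and Ifit3, the groups of Ifit2 overlapped.

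All 4 sensors were at an unadjusted p under 0.05 with groups that did not overlap. Ifih1 encodes the sensor MDA5, and its level was 80.3, 189 and 116 CPM with gesicles and 27.9, 49.4 and 11.3 CPM without. Zbp1, a sensor of Z-form nucleic acid that can trigger cell death, was at 20.6, 37.9 and 35.8 CPM against 5.87, 6.85 and 0.365 CPM. The kinase PKR, encoded by Eif2ak2, halts translation on double-stranded RNA, and it differed less, from 47.1, 56.3 and 37.6 CPM in Ctrl to 80.9, 133 and 113 CPM with gesicles (log2 fold change 1.21 ± 0.39; edgeR adjusted p = 0.862). Oasl2, a relative of the 2-5A synthetases that activate RNase L, was at 175, 255 and 256 CPM against 25.2, 38.4 and 1.95 CPM. Oas1a showed the same separation, but 47.6% of its stretches of 75 bases also occur in Oas1g, and the share at the length of the reads was not computed.

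Of the 4 transcription factors of the set, 2 were at an unadjusted p under 0.05 (Irf1 and Irf7), and each of the 4 had groups that did not overlap. Stat2 read 188, 285 and 277 CPM with gesicles and 91.1, 124 and 27.4 CPM without. Its groups did not overlap, with a log2 fold change of 1.63 ± 0.78 (unadjusted p = 0.0542, adjusted p = 1.00 by edgeR). Irf7, which drives the later wave of interferon genes, was at 151, 229.8 and 199 CPM against 39.4, 52.4 and 5.02 CPM. Irf1 differed least of the 4 (log2 fold change 0.70 ± 0.22). In the ISG15 system, Isg15, the ubiquitin-like modifier itself, read 85.4, 168 and 158 CPM against 15.9, 24.9 and 0.700 CPM. Usp18, which removes ISG15 and dampens the receptor, was at 241, 347 and 215 CPM against 46.2, 74.0 and 1.73 CPM. Trim25, a ligase that acts on RIG-I, had overlapping groups (log2 fold change 0.63 ± 0.58).

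Parp9, which works with the ligase DTX3L, read 133, 217 and 162 CPM with gesicles and 38.6, 60.8 and 14.2 CPM without. Parp9 and Dtx3l start 681 bases apart on opposite strands and share 458 exonic bases, and whether counting used strand is not given in the sources used here. Cxcl10, a chemokine that draws in T cells, was at 10.1, 95.4 and 6.88 CPM against 3.41, 12.9 and 0.0608 CPM. Its groups overlapped, and replicate 2 was its highest library in both groups. Ifi44 was at 100.3, 229.6 and 169 CPM against 17.9, 32.8 and 0.882 CPM. Ifi35 was at 134, 146 and 140.5 CPM against 50.3, 57.3 and 35.9 CPM. Xaf1, a promoter of apoptosis, was at 85.7, 96.0 and 93.9 CPM against 20.7, 25.5 and 4.53 CPM. The groups of these 3 genes did not overlap, and the treated libraries of Ifi35 and Xaf1 lay close together. Ifi27 was the exception of the set, with 199, 121 and 88.6 CPM against 138, 158 and 124 CPM (log2 fold change -0.04 ± 0.33).

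**Figure D3:**
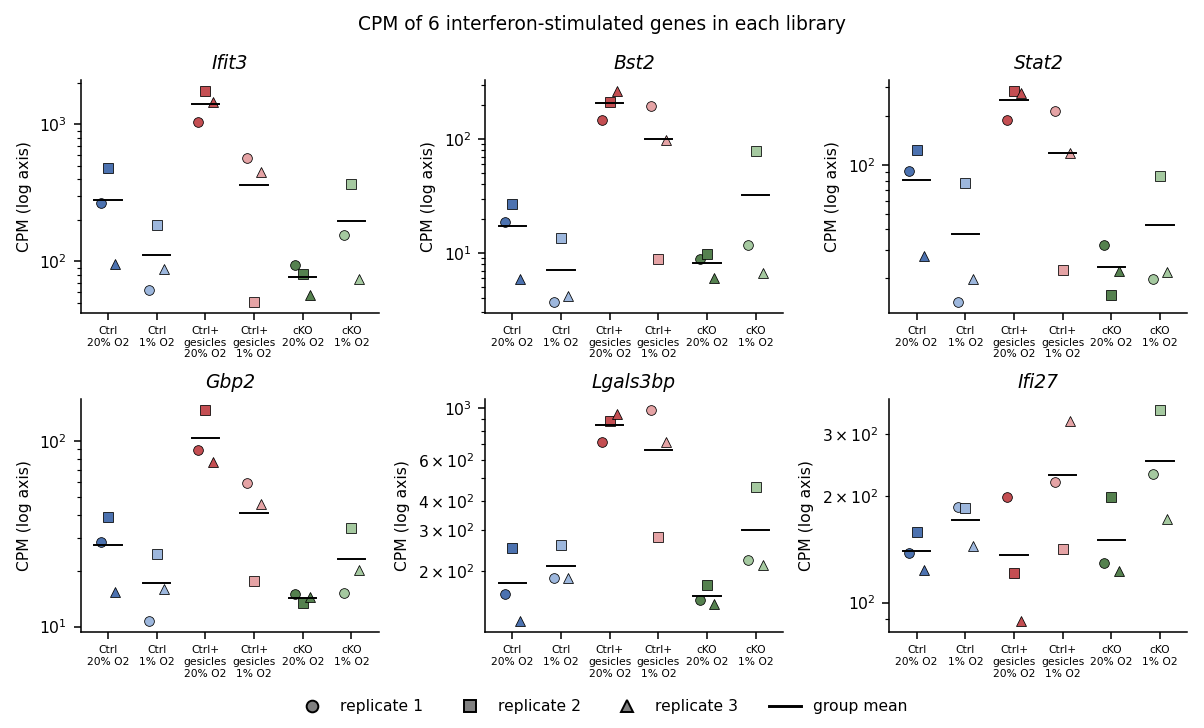
CPM (log axes, one per gene) of Ifit3, Bst2, Stat2, Gbp2, Lgals3bp and Ifi27 in each library by group. Points are libraries, shapes give the replicate number and bars the mean of 3 libraries. In Ctrl+gesicles 20% O2 all 3 points of the first 5 genes lie above all 3 Ctrl 20% O2 points, and Ifi27 shows no such order. In Ctrl+gesicles 1% O2 the square (replicate 2) lies under the other points of its group in each gene, by least for Ifi27.

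With libraries compared within replicate numbers in 20% O2, 33 of the 34 genes were higher with gesicles in each of the 3 numbers, and the median log2 difference was 1.75, 1.90 and 3.77. The number with the widest difference was the one whose Ctrl library was lowest. Leaving out 1 library at a time kept the median log2 fold change between 1.79 (without Ctrl+gesicles 20% O2 replicate 2) and 2.92 (without Ctrl 20% O2 replicate 2), and it was 1.85 without Ctrl 20% O2 replicate 3. The number of genes at an unadjusted p under 0.05 went to 10 without Ctrl 20% O2 replicate 3, 13 without its replicate 1 and 11 without Ctrl+gesicles 20% O2 replicate 2. Here and further on, the share of all genes at that level was not computed for fits without 1 library. Macrophage markers summed to 22.8 to 35.3 CPM in Ctrl+gesicles 20% O2 and 20.9 to 28.8 CPM in Ctrl 20% O2, and these ranges overlapped. Most of this sum was Lyz2 and Cd14 (medians of 15.7 and 9.09 CPM over all libraries). Each other marker of the list had at most 2.66 CPM in any library. Ptprc, Adgre1, Itgam, Cx3cr1 and Cd74 had at most 6 counts in a library. In RNA from whole cultures, more cells that express a gene cannot be told apart from more RNA of it per cell.

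In 1% O2 the same comparison split by replicate. Replicates 1 and 3 of Ctrl+gesicles 1% O2 were both above all 3 Ctrl 1% O2 libraries in 27 of the 34 genes. Replicate 2, which this count sets aside, lay at the level of the untreated libraries. The share of all genes under the same rule was not computed. Within numbers, 34 genes were higher with gesicles in number 1 (median log2 difference 3.68), 1 in number 2 (median -1.56) and 33 in number 3 (median 2.74). Only Lgals3bp had groups that did not overlap, 1 of 34, where 2.97% of all genes had groups apart in this direction. The median log2 fold change of the set was 1.67, against -0.01 for all genes tested.

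By edgeR 0 of the 34 genes were called and 0 of all genes (0%), 18 of the 34 were higher at an unadjusted p under 0.05 (1.06% of all genes), and DESeq2 and limma voom each called 0 of the 34. Bst2 was at 196, 8.77 and 98.3 CPM with gesicles and at 3.70, 13.4 and 4.17 CPM without (log2 fold change 3.83 ± 1.02; edgeR adjusted p = 1.00). The difference had the opposite sign in replicate 2. Lgals3bp was at 979.5, 281 and 718 CPM against 188, 259 and 188 CPM, higher in all 3 numbers (log2 fold change 1.64 ± 0.38). Ifi35 was at 97.2, 23.0 and 98.3 CPM against 21.5, 38.02 and 26.5 CPM, and Xaf1 at 82.8, 5.11 and 66.2 CPM against 3.51, 14.9 and 3.63 CPM. Gbp2 read 59.4, 17.6 and 45.7 CPM against 10.7, 24.5 and 16.0 CPM.

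The 2 libraries of number 2 set the size of this result. Without Ctrl+gesicles 1% O2 replicate 2 the median log2 fold change was 2.19 and 26 of the 34 genes were at an unadjusted p under 0.05. Without Ctrl 1% O2 replicate 2 the median log2 fold change was 3.58 with 30 genes. The shares of all genes at that level in these fits were not computed, so the counts have no background. Without any other library of these groups the median lay between 1.18 and 1.67, with 4 to 13 genes. Without Ctrl+gesicles 1% O2 replicate 2 and with replicate numbers as a block, edgeR called 6 of the 34 (Ifit3, Bst2, Gbp2, Ifi35, Xaf1 and Lgals3bp) and 0.235% of all genes. Leaving out any other library under this block called 0 of the 34. The gesicle effects in the 2 O2 levels were not shown to differ: no gene of the set had an interaction at an unadjusted p under 0.05, and edgeR called 0 of all genes for it (0%). The median difference between the 2 effects was -0.19 on the log2 scale, 0.34 without Ctrl+gesicles 1% O2 replicate 2 and 1.34 without Ctrl 1% O2 replicate 2. It was also above 0 without Ctrl 20% O2 replicate 3 (0.25) and without Ctrl+gesicles 20% O2 replicate 2 (0.16), and below 0 without any of the other 8 libraries. Averaged over both O2 levels with the block, the effect was called for Lgals3bp alone (log2 fold change 1.95, edgeR adjusted p = 0.0458; 0.0371% of all genes), and 31 of the 34 genes were higher at an unadjusted p under 0.05 (3.48% of all genes). This average also turned on 1 library. Without Ctrl+gesicles 1% O2 replicate 2, edgeR called 28 of the 34 genes and 0.853% of all genes, with a median log2 fold change of 2.87. Without any other Ctrl or gesicle-treated library 0 or 1 of the 34 were called, with 23 to 32 at an unadjusted p under 0.05, and without Ctrl 1% O2 replicate 2 there were 0 and 32. These fits were chosen after seeing the data.

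**Figure D4:**
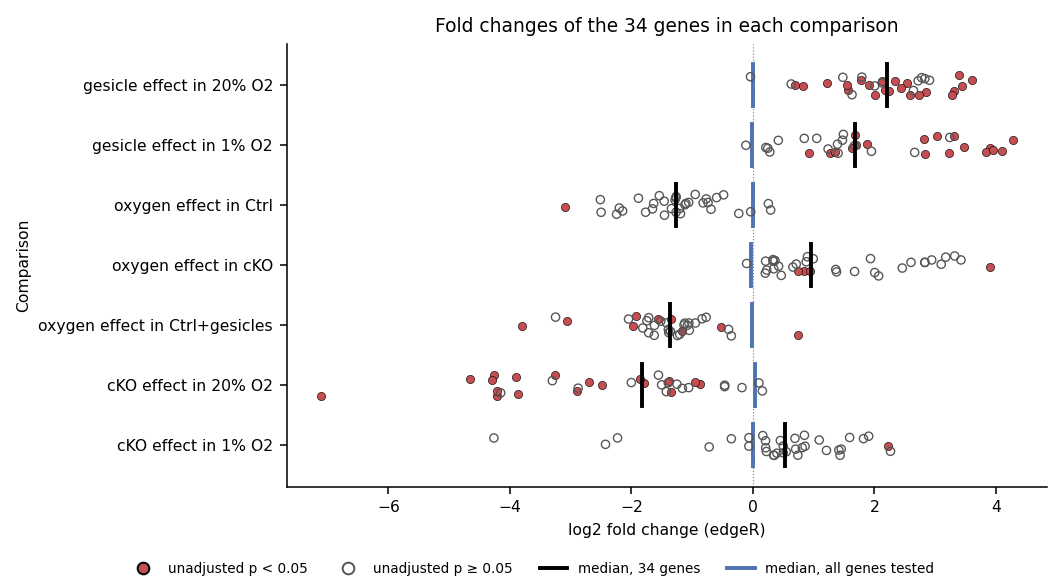
log2 fold change of each of the 34 genes (points) in the 7 comparisons (rows), filled red where the unadjusted edgeR p was under 0.05. Black bars mark the median of the 34 genes and blue bars that of all genes tested. Medians lie to the right of 0 in both gesicle comparisons (2.21 and 1.67) and to the left in Ctrl TFs in 1% O2 (-1.26), with a wide spread in each row, and the leftmost point, Mx1, rests on 1 count in cKO 20% O2.

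The second question was whether low O2 changed the set. In Ctrl TFs 32 of the 34 genes had a fold change below 0 in 1% O2 (median log2 fold change -1.26), but the groups overlapped in every gene, where 13.3% of all genes were apart in the lower direction. Markers of mural cells (5 genes) summed to 52.3 to 94.3 CPM in 1% O2 and 95.7 to 161 CPM in 20% O2. Those of endothelial cells (6 genes) summed to 11.5 to 27.6 CPM and 27.9 to 45.5 CPM. Both sums were apart and lower in 1% O2 too, and their part in the result was not tested. The endothelial sum was nearly all Tek (11.3 to 76.5 CPM over all libraries). Each other gene of that list had at most 0.650 CPM in any library. By edgeR 0 of the 34 were called (2.68% of all genes were), 1 was lower at an unadjusted p under 0.05 (7.13% of all genes), and DESeq2 and limma voom called 0. That gene was Zbp1, at 0.110, 1.43 and 0.0259 CPM in 1% O2 and 5.87, 6.85 and 0.365 CPM in 20% O2 (log2 fold change -3.10 ± 1.42; edgeR adjusted p = 0.279). Replicates 1 and 3 in 1% O2 held 4 counts and 1 count of Zbp1. Ifit3 read 61.5, 183 and 87.4 CPM in 1% O2, Samd9l 30.7, 93.8 and 37.3 CPM, and Ifih1 4.89, 26.5 and 7.47 CPM. In each of the 3, replicate 2 lay above the lowest Ctrl 20% O2 library. Within numbers 32, 32 and 24 of the 34 genes were lower in 1% O2, with median log2 differences of -2.26, -0.87 and -0.31. Without Ctrl 1% O2 replicate 2 the median was -2.25 and 26 of the 34 genes were at an unadjusted p under 0.05, and without Ctrl 20% O2 replicate 2 it was -0.61 with 0 genes. Without Ctrl 20% O2 replicate 3 there were 6 such genes, and without any of the other 3 libraries there were 0. The shares of all genes in these fits were not computed.

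In cKO TFs the set leaned the other way, with 33 of 34 fold changes above 0 in 1% O2 and a median log2 fold change of 0.96. Within numbers, 33 genes were higher in number 2 (median log2 difference 2.17), while the median was 0.06 and 0.00 in numbers 1 and 3. Without cKO 1% O2 replicate 2 the median log2 fold change was -0.03 with 1 gene at an unadjusted p under 0.05. That number was 8 and 16 without replicates 1 and 3 of cKO 1% O2, and 1, 2 and 0 without replicates 1, 2 and 3 of cKO 20% O2. edgeR called 0 of the 34 (3.01% of all genes), and DESeq2 also called 0. Of the 34, 4 were higher at an unadjusted p under 0.05 (10.4% of all genes) and 5 had groups apart in this direction (10.3%), so the set was near the background. Lgals3bp was at 225, 460.2 and 213 CPM in 1% O2 and 152, 175 and 145 CPM in 20% O2 (log2 fold change 0.93 ± 0.38; edgeR adjusted p = 0.174). Ifit2 was at 154, 93.5 and 80.9 CPM against 70.6, 56.6 and 55.0 CPM. In these 2 genes all 3 libraries in 1% O2 were above all 3 in 20% O2, with replicate 1 the highest for Ifit2. Ifi44 was at 0.711, 27.2 and 0.625 CPM against 0.717, 0.917 and 0.408 CPM, so its difference was that of 1 library. Ifi27 was at 231, 350.1 and 172 CPM against 129, 199 and 123 CPM. limma voom with library weights, which gives less weight to libraries that vary more, called 4 of the 34 here (Irf9, Ifit3, Ifi27 and Lgals3bp) and 16.7% of all genes.

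In gesicle-treated TFs 18 of the 34 genes had all 3 libraries in 1% O2 below all 3 in 20% O2, where 11% of all genes did. The median log2 fold change was -1.37. edgeR called 0 of the 34 (2.41% of all genes), 8 were lower at an unadjusted p under 0.05 (8.19% of all genes), DESeq2 called 2 (Ifit2 and Gbp2; 4.81% of all genes it tested), and limma voom called 3 (Ifih1, Ifit2 and Gbp2; 4.61%). Endothelial markers, again nearly all Tek, summed to 17.4 to 25.2 CPM in 1% O2 and 25.8 to 61.3 CPM in 20% O2, and their part was not tested. Ifit2 was at 108, 65.0 and 87.6 CPM in 1% O2 and 119.9, 330.3 and 136 CPM in 20% O2 (log2 fold change -1.17 ± 0.35; edgeR adjusted p = 0.0881). The groups of Ifit2 were apart, though 119.9 and 108 CPM lay close. The size of this difference varied by number: within numbers the median log2 difference was -0.06, -4.53 and -1.26, and without Ctrl+gesicles 1% O2 replicate 2 the median log2 fold change was -0.97 with 4 genes at an unadjusted p under 0.05. Without Ctrl+gesicles 20% O2 replicate 2, 2 genes were at that level, and without Ctrl+gesicles 1% O2 replicate 1, 18 were.

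cKO TFs were then compared with Ctrl TFs. In 20% O2, 28 of the 34 genes had their lowest group mean of all 6 groups in cKO TFs, and the median log2 fold change was -1.82. The share of all genes with their lowest mean there was not computed. Mural markers summed to 38.6 to 50.3 CPM in cKO TFs and 95.7 to 161 CPM in Ctrl TFs, and mitochondrial counts made up 0.452% to 1.02% and 0.365% to 0.436% of the total. Both were apart between the groups, and their part in the result was not tested. The groups nevertheless overlapped in 30 of the 34, and 4 genes had all 3 cKO libraries below all 3 Ctrl libraries (10.3% of all genes). edgeR called 0 of the 34 (0.538% of all genes), 18 were lower at an unadjusted p under 0.05 (7.3% of all genes), DESeq2 called 0, and limma voom called 2 (Ifit2 and Trim25; 9.41% of all genes). Ifit3 was at 94.2, 80.7 and 57.2 CPM in cKO TFs and 265, 480.1 and 95.6 CPM in Ctrl TFs (log2 fold change -1.86 ± 0.74; edgeR adjusted p = 0.273). Ifit3, Ifit2, Gbp2 and Eif2ak2 were the 4 with groups apart, each with Ctrl replicate 3 nearest to the cKO libraries. At an unadjusted p under 0.05 there were 11, 1 and 26 genes without Ctrl 20% O2 replicates 1, 2 and 3 in turn, and the median log2 fold change without replicate 3 was -2.23. Without cKO 20% O2 replicates 1, 2 and 3 in turn there were 11, 4 and 2. Mx1 had 0, 0 and 1 count in cKO TFs and is given no fold, and the median of the other 33 genes was -1.79.

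Between cKO and Ctrl TFs in 1% O2, the set differed by a median of 0.52 on the log2 scale. Mitochondrial counts made up 0.534% to 0.754% of the total in cKO TFs and 0.398% to 0.426% in Ctrl TFs. These shares were apart, as in 20% O2, and their part in the result was not tested. edgeR called 0 of the 34 (0.0866% of all genes), 1 was higher at an unadjusted p under 0.05 (7.1% of all genes), 1 had groups apart (12% of all genes), DESeq2 called 0 and limma voom called 1 (Ifi27; 7.49% of all genes). The median turned to -0.85 without cKO 1% O2 replicate 2, with 0 genes at an unadjusted p under 0.05, and was 1.95 without Ctrl 1% O2 replicate 2, with 11. Bst2 was the gene at that level, at 11.7, 78.9 and 6.65 CPM in cKO TFs (log2 fold change 2.22 ± 0.96). A test of whether the O2 response differed between genotypes called 0 of the 34 and 0 of all genes by edgeR (0%), and DESeq2 and limma voom also called 0 of the 34. The difference of the responses was above 0 in 34 of 34 genes (median 1.98 on the log2 scale), and 14 of the 34 were at an unadjusted p under 0.05 (1.17% of all genes). With replicate numbers as a block 2 of the 34 were at that level (1.71% of all genes). The count was 1 without cKO 1% O2 replicate 2 (median 1.14) and 28 without Ctrl 1% O2 replicate 2 (median 3.70), and lay between 4 and 20 without any other library. The shares of all genes without a library were not computed.

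Levels of different genes can be compared only per length of transcript. Over the 18 libraries, Ifit3 had the highest mean at 233 CPM per kb of exonic length (GENCODE M21), followed by Lgals3bp at 138, Ifi27 at 123 and Ifit1 at 83.4 CPM per kb, and Mx1 was lowest at 0.381 CPM per kb. In cKO 20% O2 the order was different, with Ifi27 at 102, Lgals3bp at 55.1, Ifit3 at 44.3 and Ifit1 at 2.75 CPM per kb. Lgals3bp and Ifi27, then, made up much of the set where the rest was low. Ifi27 had a median correlation of 0.04 with the other 33 genes over the 18 libraries, against 0.68 for Ifit2, the next lowest.

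The genes upstream of the set were also read, from a list of 159 other genes of the interferon pathway. Ifnb1, which encodes interferon beta, was at 0.0463, 0.702 and 0.375 CPM in Ctrl+gesicles 20% O2 and 0.0268, 0.295 and 0 CPM in Ctrl 20% O2. It had at most 31 counts in a library and none in any cKO library. Of the 21 interferon genes listed, 19 were not tested for lack of counts (at most 6 in a library), and 11 had no count in any library. All 6 receptor genes passed the filter, and by edgeR 0 of the 6 were at an unadjusted p under 0.05 in either gesicle comparison. Ifnar2 and Ifngr2 had log2 fold changes of 0.25 ± 0.14 and -0.04 ± 0.12 in 20% O2. Ifnar1 was at 77.0, 90.0 and 84.9 CPM in Ctrl+gesicles 20% O2 and 87.3, 94.9 and 86.7 CPM in Ctrl 20% O2. Ifngr1, a receptor for interferon gamma, was called higher in 1% O2 in Ctrl TFs (156, 139 and 150.0 CPM against 87.1, 92.0 and 89.3 CPM; log2 fold change 0.73 ± 0.11, edgeR adjusted p = 0.00150). It was also called in cKO TFs (edgeR adjusted p = 0.00200).

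Signalling genes and sensors outside the set divided. Irf3 was at 34.4, 30.2 and 35.1 CPM in Ctrl+gesicles 20% O2 and 28.4, 31.3 and 32.8 CPM in Ctrl 20% O2, and Mavs, the adaptor of RIG-I and MDA5, at 59.2, 53.3 and 54.8 CPM against 51.5, 58.4 and 56.3 CPM. The groups of Irf3 and Mavs overlapped. Ddx58, which encodes RIG-I, was at 207, 303 and 247 CPM against 93.0, 117 and 47.7 CPM, and its groups were apart. Tlr3, a sensor of double-stranded RNA in endosomes, was apart as well (log2 fold change 1.45 ± 0.43). Mb21d1, which encodes cGAS, was at 4.50, 7.72 and 5.33 CPM against 4.72, 5.52 and 3.35 CPM, and Tmem173, which encodes STING, at 51.3, 52.7 and 39.8 CPM against 40.7, 45.6 and 26.7 CPM. Both overlapped. Of 94 other interferon-stimulated genes tested, 68 were higher with gesicles in 20% O2 at an unadjusted p under 0.05 (2.36% of all genes) and 76 had groups apart (6.88%), and edgeR called 0 of them. In 1% O2, 40 were higher at that level (1.06%) and 5 had groups apart (2.97%), with 0 called. Calls among the 131 listed genes that were tested numbered 2 for O2 in Ctrl TFs (2.68% of all genes), 1 in cKO TFs (3.01%), 3 in gesicle-treated TFs (2.41%) and 1 for cKO in 20% O2 (0.538%). Between 1% and 20% O2, edgeR called Ms4a4d higher in Ctrl TFs (log2 fold change 1.99 ± 0.47, adjusted p = 0.0298). In gesicle-treated TFs Pnpt1, Ifit1bl1 and Samhd1 were called lower in 1% O2 (edgeR adjusted p = 0.0394, 0.0474 and 0.0496). Socs3, which dampens JAK-STAT signalling, was called higher in cKO than Ctrl TFs in 20% O2 (log2 fold change 0.85 ± 0.18, edgeR adjusted p = 0.0496).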

How the data were processed

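Poly-A RNA-seq was done on 18 libraries of mouse tail TFs. The authors trimmed reads with Cutadapt 4.8, mapped them to GRCm38 with STAR 2.7.8a and estimated counts per gene with RSEM 1.3.3; they deposited these estimated counts as whole numbers, un-normalized. Groups followed the labels, which give 10% serum where the methods give 1%. The methods name a paired design in DESeq2 without its pairing factor, and whether same-numbered replicates share a mouse is not stated.

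The 34 members and all gene lists were chosen with earlier results of these data known. Genes were filtered with filterByExpr, scaled by TMM and tested with edgeR 4.0.16 (quasi-likelihood, 1 coefficient per group, all 18 libraries, Benjamini-Hochberg over 16174 genes) in R 4.3.3; genes with adjusted p under 0.05 that differed at least 1.5-fold were called. SE was taken as log2 fold change over the square root of F. The method was checked on simulated counts. DESeq2 1.42.0, limma 3.58.1, other filters, size factors, sample sets, a replicate block and leaving out each library were alternatives; limma voom with library weights, the gesicle effect averaged over O2 levels, the block with a library left out, and the interactions with a library left out were chosen after seeing the data. Genes with values in every library were those with the 4 lowest p-values in each gesicle comparison and each O2 comparison of Ctrl and cKO TFs, and the most abundant gene per role; Ifit1, Isg15 and Irf7 were added after their values were seen. Promoters printed were the genes among these with the lowest p whose ISRE core lies before the start, and 1 gene with none. Residuals of same-numbered libraries correlated above 0.1 in all 3 pairs over all genes in both gesicle comparisons and in the O2 comparison of Ctrl TFs (0.193 to 0.462), so the numbers were read as pairs there. Over the 34 genes alone this did not hold throughout. The correlations were -0.719, -0.840 and -0.571 for gesicles in 1% O2 (numbers 1, 2 and 3). They were -0.233, 0.682 and 0.374 for gesicles in 20% O2, and -0.646, 0.899 and 0.923 for O2 in Ctrl TFs. Values within numbers and fits with the block are limited by this for the set. In the other comparisons values within numbers are a description only. Otherwise p-values measure the spread between these libraries. No 2 libraries were copies, with at least 10.5 chi-square per degree of freedom between them. Floors of 3 counts cover counting error only. Not every gene of the pathway list is reported here.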

Additional observations from a re-analysis of the deposited data

How the results depend on the processing

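Under 152 alternatives over the 7 comparisons and 2 interactions, 0 of the 34 genes were called in 141. In the gesicle comparison in 20% O2, 2 were called with no filter on low counts, 2 by DESeq2 and 1 when averaged over both O2 levels with the replicate block; in 1% O2, 1 was called when so averaged, leaving out 1 library called 0, and leaving it out with the replicate block gave 0 to 6. The averaged effect itself, with the block, gave 0 to 28 without 1 library (28 without Ctrl+gesicles 1% O2 replicate 2). In gesicle-treated TFs in 1% against 20% O2, 1 was called with no filter, 2 by DESeq2 and 3 by limma voom; limma voom also called 4 for O2 in cKO TFs, 2 for cKO in 20% O2 and 1 for cKO in 1% O2. The cause was not tested. The replicate block alone called 0 of the 34 in every comparison and turned the median of the gesicle by O2 interaction from -0.19 to 0.042. Leaving out 1 library gave medians from -0.031 (without cKO 1% O2 replicate 2) to 1.34 for O2 in cKO TFs, values from -0.051 (without the same library) to 4.49 for Ifi44 there, and medians from -0.85 (the same library) to 1.95 for cKO in 1% O2. For the gesicle by O2 interaction such medians lay between -0.70 and 1.34. For the genotype by O2 interaction, the 14 genes at an unadjusted p under 0.05 became 2 with the block and 23 with no filter. Counts over all genes moved by more than 1.5 times between tools and fits: from 0 to 46 (4 as reported) for gesicles in 20% O2 and 0 to 38 (0 as reported) in 1% O2, 223 to 1556 (434 as reported) for O2 in Ctrl, 86 to 2707 (487) in cKO and 118 to 774 (390) in gesicle-treated TFs, 1 to 1522 (87) for cKO in 20% O2 and 0 to 1211 (14) in 1% O2. For the last 5 of these comparisons the replicate block gave 753, 841, 774, 140 and 33. In 4 of the 7 comparisons same-numbered residuals over all genes did not all correlate above 0.1.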

Other observations

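Outside the 34 genes, those most like the mean of the set over the 18 libraries were Mndal (Spearman correlation 0.99), Phf11d (0.986), Irgm1 (0.979), Gbp6 (0.975) and Psmb8 (0.971), and 16 of the 20 most alike were on the list of interferon pathway genes. The 18 libraries share 6 groups, so these correlations also carry the group differences and are given as a description. Psmb8 and Psmb9 (0.967), which are subunits of the immunoproteasome that cuts peptides for MHC class I, were not on that list. Psmb9 was named after its value was seen.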
